A study of Mus musculus with 30 samples.

Results

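The Hox cluster genes, taken as every gene whose symbol is Hox followed by a cluster letter (a to d) and a number, were followed in mouse primordial germ cells, from which oocytes and sperm descend. On these Affymetrix arrays 37 such genes had a probe set that names them alone, out of 19937 genes measured. Each of the 37 had 1 such probe set. They comprise 10 genes of the Hoxa, 9 of the Hoxb, 9 of the Hoxc and 9 of the Hoxd cluster. The only probe set naming Hoxb8 also names Hoxb7 and was not used. The germ cells came from 10 groups of 3 arrays each. Control cells are Ring1+;Rnf2+ and were sampled at E11.5, E12.5 and E13.5 (days of embryonic development) in females and males. Rnf2delta cells are Ring1+;Rnf2delta and were sampled at E11.5 and E12.5 in both sexes. All embryos were of a mixed 129/Sv and C57BL6J background and carried the Oct4(deltaPE)-GFP transgene, whose fluorescence was used to sort the germ cells from dissociated gonads. RNA of 500 cells per sample was amplified before hybridisation. The labels name neither a Cre driver nor the extent of the deletion. They leave unsaid whether arrays of one group stem from different embryos, so each p-value measures the spread between samples only, and that spread may be technical.

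Hox genes encode homeodomain transcription factors that give cells their position along the head-to-tail axis. They lie in clusters in which a gene's position, counted as its paralogue group, matches where and when it is switched on, from anterior to posterior. In cells that should not use them the clusters are held silent by Polycomb: PRC2 methylates histone H3, and PRC1, whose catalytic core is the RNF2 or RING1 ubiquitin ligase, binds that mark, ubiquitinates histone H2A and compacts the chromatin. Hox genes are classical Polycomb targets, and germ cell precursors keep the somatic Hox programme low.

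The genotype was checked first. Rnf2 had a log2 signal of 3.81 to 5.0 on Rnf2delta arrays and of 4.13 to 5.71 on control arrays of the same 2 stages, and over the 4 pairs of groups of the same stage and sex it fell by 0.64 ± 0.09 (SE, limma adjusted p = 2.1e-05). Tested pair by pair, Rnf2 passed in both E12.5 pairs and in neither E11.5 pair. Where its probes lie relative to the deletion is not known here, and outside it the level would check nothing. All 12 germ cell markers examined were above background in every group. Background is the 95th percentile of the log2 signals of 1027 olfactory receptor genes on the same array. Over the 4 pairs 2 of the 12 markers rose and 1 fell, beside 6.01% and 1.79% of all genes. In E12.5 females 1 rose (Mael, by 1.67 ± 0.26) and 4 fell, by 0.50 to 0.69, where 8.83% of all genes changed. The 6 E12.5 female arrays stood apart. Their mean correlation with the other arrays of their group was 0.967 to 0.981, against 0.985 to 0.992 elsewhere, over genes that are not independent replicates. The olfactory receptor median was 1.89 to 1.98 on control E12.5 female arrays and 1.71 to 1.86 on every other array.

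Most Hox genes gave no signal above background in control germ cells. Between 2 and 4 of the 37 were above background on all 3 arrays of a control group (5.41% to 10.8%), where 44.7% to 51.7% of all genes were. The same few genes account for these counts. Hoxb1, a gene of the hindbrain programme, was above background on all 30 arrays, with log2 signals of 2.83 to 3.62. Hoxb7, expressed in the trunk, was above background on 29 arrays, and Hoxb3 and Hoxa4, anterior to it in the axial order, on 28 each. Of the others, 15 Hox genes were above background on no array and 18 on 1 to 10 arrays. Every count depends on the cutoff, because Hox signals lie close to it: averaged over the 10 groups, 4.4 Hox genes were above background, and 0.5 with the 99th percentile of the olfactory receptor genes in its place. With the 40th percentile of all probe sets of the array the average was 7.1.

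**Figure D1:**
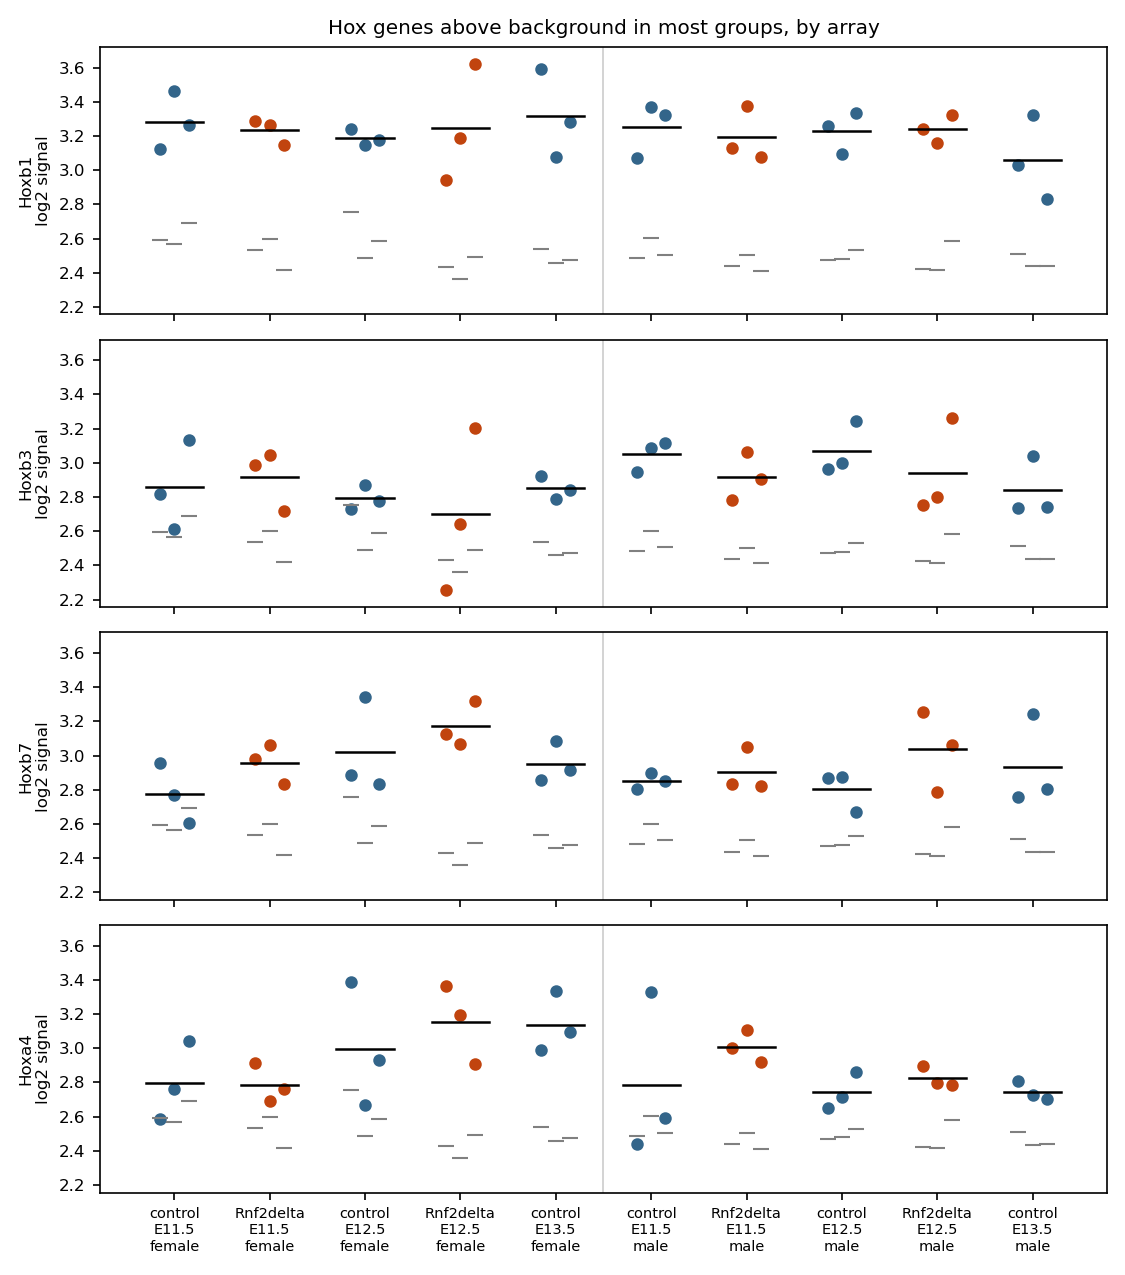
Log2 signal (vertical axis) of Hoxb1, Hoxb3, Hoxb7 and Hoxa4 on each array of the 10 groups (horizontal axis; blue, control; orange, Rnf2delta). Black bars are group means and grey dashes the background cutoff of each array. Hoxb1 lies above the cutoff on all 30 arrays, and the arrays of the genotypes overlap in all 4 pairs for each of these genes.

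These 4 genes did not pass the test of genotype in any comparison. Hoxb1 differed by 0.06 or less in size in each of the 4 pairs, with an SE of 0.15, and by -0.01 ± 0.08 over their mean. Hoxb3 was 0.06 higher in Rnf2delta E11.5 females and 0.09 to 0.13 lower in the other pairs, with an SE of 0.17. Hoxb7 was higher in all 4 pairs, by 0.05 to 0.23 (SE 0.15), with overlapping arrays throughout, and the mean of 0.15 ± 0.07 did not pass (limma adjusted p = 0.226). Hoxa4 ranged from -0.01 to 0.22 (SE 0.18).

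In 3 of the 4 pairs every Rnf2delta array held more Hox genes above background than every control array. In E11.5 males 7 to 9 Hox genes per Rnf2delta array exceeded the cutoff, and 3 to 6 per control array. In E12.5 males the counts were 9 to 12 and 4 to 6. In E12.5 females they were 7 to 13 and 3 to 6. In E11.5 females the groups overlapped, with 4 to 6 in Rnf2delta and 3 to 5 in controls. The genes added on all 3 arrays were Hoxa4, Hoxa10, Hoxa11 and Hoxd9 in E11.5 males, Hoxa10, Hoxa11, Hoxb9 and Hoxd9 in E12.5 males, and Hoxd8 and Hoxd9 in E12.5 females. The cutoff itself was lower in Rnf2delta than in control E12.5 females (2.36 to 2.49, against 2.49 to 2.76). On all 3 arrays, 51% of all genes exceeded it there against 44.7%. In E12.5 males those shares were 50.9% and 50.1%, and in E11.5 males 52.8% and 50.1%. Per array, the shares of all genes in Rnf2delta and control were 55.9% to 59.2% and 48.8% to 55.7% in E12.5 females. They were 56.5% to 56.8% and 52.7% to 55.5% in E11.5 males, and 53.6% to 57% and 51.6% to 53% in E11.5 females. Only in E12.5 males did they overlap (54.7% to 56.9% and 54.5% to 55%). The part of the cutoff in the Hox counts was not tested.

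**Figure D2:**
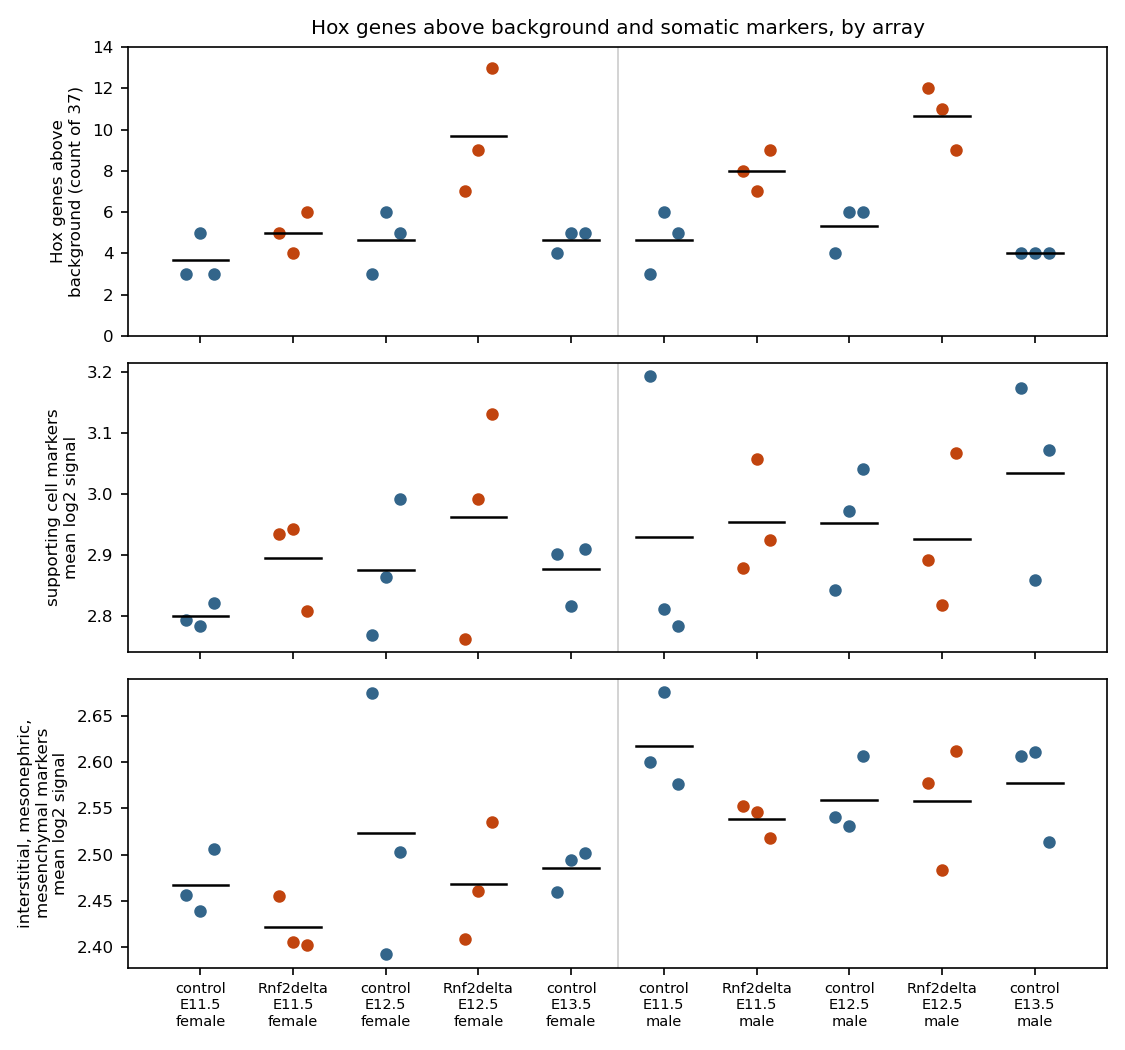
Number of Hox genes above background per array (top) and mean log2 signal of 2 lists of somatic markers (middle and bottom), for the 3 arrays of each of the 10 groups (blue, control; orange, Rnf2delta; black bars, means). The Hox count reaches 13 on an Rnf2delta E12.5 female array, and the somatic lists overlap between genotypes at E12.5.

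Averaged over the 4 stage and sex pairs, 12 Rnf2delta against 12 control arrays, 4 of the 37 Hox genes rose and none fell, where 7.8% of all genes changed and 6.01% rose. They were Hoxd9, Hoxa10, Hoxd8 and Hoxa11. Hoxd9 and Hoxd8 are neighbours in the Hoxd cluster on chromosome 2, and Hoxa10 and Hoxa11 are neighbours in the Hoxa cluster on chromosome 6. Hoxd9, Hoxa10 and Hoxa11 belong to the posterior paralogue groups (9 to 13), which pattern the trunk, limbs and urogenital tract, and Hoxd8 to the central ones (4 to 8). The median over all 37 was 0.01, beside -0.01 over all genes, and 20 lay above 0. At an unadjusted p under 0.05 there were 9 Hox genes by limma, beside 20.5% of all genes. More cells that transcribe a gene and more RNA per cell cannot be told apart in such sorted pools.

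The promoter windows of these 4 genes are shown because they are the members that rose. Each holds 250 bases before and 50 after the RefSeq start (build GRCm38.p6), 5′ to 3′ on the gene's strand, with CG dinucleotides, at which CpG islands and Polycomb recruitment are usually described, in capitals. Hoxd9 is at chr2:74697513-74697812 (+), Hoxd8 at chr2:74704365-74704664 (+), Hoxa10 at chr6:52240805-52241104 (-) and Hoxa11 at chr6:52245761-52246060 (-).
Hoxd9: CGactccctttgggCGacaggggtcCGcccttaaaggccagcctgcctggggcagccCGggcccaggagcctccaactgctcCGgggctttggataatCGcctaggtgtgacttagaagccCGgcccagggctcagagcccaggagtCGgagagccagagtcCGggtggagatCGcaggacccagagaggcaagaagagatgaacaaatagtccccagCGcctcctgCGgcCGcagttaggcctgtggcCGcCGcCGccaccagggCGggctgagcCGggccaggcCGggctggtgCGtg
Hoxd8: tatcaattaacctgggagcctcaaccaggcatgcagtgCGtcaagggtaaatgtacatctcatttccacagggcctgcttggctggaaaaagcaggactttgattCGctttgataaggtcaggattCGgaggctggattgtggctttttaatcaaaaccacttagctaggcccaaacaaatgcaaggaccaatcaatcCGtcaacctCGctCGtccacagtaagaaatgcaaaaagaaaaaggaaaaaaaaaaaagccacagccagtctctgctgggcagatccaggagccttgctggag
Hoxa10: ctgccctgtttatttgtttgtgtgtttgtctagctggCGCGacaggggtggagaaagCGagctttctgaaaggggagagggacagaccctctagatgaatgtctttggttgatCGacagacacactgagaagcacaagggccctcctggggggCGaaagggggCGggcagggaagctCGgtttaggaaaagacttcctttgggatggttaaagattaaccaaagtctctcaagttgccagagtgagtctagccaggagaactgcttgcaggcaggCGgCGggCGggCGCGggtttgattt
Hoxa11: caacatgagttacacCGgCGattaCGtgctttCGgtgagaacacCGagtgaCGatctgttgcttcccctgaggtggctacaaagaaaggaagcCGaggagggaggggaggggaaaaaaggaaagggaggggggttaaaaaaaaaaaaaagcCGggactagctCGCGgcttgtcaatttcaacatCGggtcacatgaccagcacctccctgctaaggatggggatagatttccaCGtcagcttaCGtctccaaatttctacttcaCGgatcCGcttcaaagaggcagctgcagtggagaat

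The 4 windows differ in CG content. Hoxd9 holds 20 CG dinucleotides in 68.3% GC, Hoxa11 15 in 51.0%, Hoxa10 12 in 54.3% and Hoxd8 6 in 46.7%. The median was 14 over the 21 Hox members with a window in the table, ranging from 4 to 45, and 7 over all 32851 windows. Of all windows, 73.5% held fewer CG dinucleotides than Hoxd9, 65.4% fewer than Hoxa11, 60.4% fewer than Hoxa10 and 43.6% fewer than Hoxd8. Neither the lowest nor the highest count among Hox windows belongs to a gene that rose. Both strands were searched for TGATNNAT, the composite site of Hox and Pbx proteins, and for AGGTCA, the retinoic acid receptor half-site. TGATNNAT stands in 2 of the 21 Hox windows (Hoxa2 and Hoxb1) and in 8.8% of all windows, and in none of the 4 above. AGGTCA stands in 7 of the 21, Hoxd8 among them, and in 16.3% of all windows. A match is a description of the letters, not of a site in use.

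Hoxd9, a posterior Hox gene of the trunk and limb, had the largest difference among Hox genes at E12.5 and over the mean of the 4 pairs, while Hoxa10 exceeded it in both sexes at E11.5. In E12.5 females its log2 signal was 1.90, 1.99 and 1.71 in controls and 2.62, 2.62 and 3.58 in Rnf2delta. In E12.5 males it was 2.10, 2.02 and 2.38 in controls and 2.74, 3.21 and 3.03 in Rnf2delta. Every Rnf2delta array was above every control array in both sexes, and the control arrays were all below background. Hoxd9 rose by 1.07 ± 0.18 in E12.5 females (limma adjusted p = 0.000344) and by 0.83 ± 0.18 in E12.5 males (adjusted p = 0.0157). Set against the background floor of the controls in place of their own signal, the rise of the mean was at least 1.25-fold in females and at least 1.42-fold in males. The floor is the mean over the 3 control arrays of the higher of the background cutoff and the probe set's own signal. In females the floor was 2.61 and Rnf2delta replicates 1 and 2 read 2.62 each, so the female bound rests on replicate 3.

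At E11.5 the genotypes lay closer. Hoxd9 read 2.23, 2.22 and 2.151 in control and 2.26, 2.55 and 2.67 in Rnf2delta females, and 2.41, 2.22 and 2.18 in control and 2.53, 2.52 and 2.52 in Rnf2delta males. The arrays again did not overlap, but neither difference passed: 0.29 ± 0.18 in females (limma adjusted p = 0.924) and 0.26 ± 0.18 in males (adjusted p = 0.951). Hoxd9 was the only one of the 37 whose arrays were higher without overlap in all 4 pairs. The share of all genes that did so was not counted, so how unusual this is cannot be said. The mean Hoxd9 difference over the 4 was 0.61 ± 0.09 (adjusted p = 2.41e-05). The E13.5 controls read 1.97 to 2.31, below every Rnf2delta E12.5 array, and no Rnf2delta cells of that stage were sampled.

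Hoxd8, the next gene of the Hoxd cluster on its anterior side, differed most at E12.5 as well. In E12.5 females it read 2.27, 2.26 and 1.86 in controls and 2.53, 2.42 and 2.97 in Rnf2delta, and in E12.5 males 1.85, 1.77 and 1.81 and 2.44, 1.96 and 2.52. Both pairs were free of overlap. Hoxd8 rose by 0.51 ± 0.14 in females (limma adjusted p = 0.0193), at least 1.02-fold over the floor for the mean. That bound too rests on replicate 3, since Rnf2delta replicates 1 and 2 read below the floor of 2.61. The male difference of 0.49 ± 0.14 did not pass (adjusted p = 0.111). At E11.5 it was 0.21 in females and 0.14 in males, with every array of both genotypes below background. The mean over the 4 pairs was 0.34 ± 0.07 (adjusted p = 0.00148). No other Hoxd gene passed over the 4 pairs, where their means ran from -0.15 to 0.17. Hoxd1 was higher in all 4 pairs by 0.02 to 0.27, and Hoxd11 in 3. Hoxd10, the posterior neighbour of Hoxd9, differed by -0.07 to 0.25, and Hoxd13, expressed in digits and the urogenital end of the axis, was lower in all 4 pairs by 0.06 to 0.28 without passing.

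Hoxa10, which patterns the uterus and lumbar spine, was higher in Rnf2delta in all 4 pairs and passed singly in E12.5 males only. In E12.5 males it read 2.39, 2.31 and 2.58 in controls and 3.35, 2.90 and 3.07 in Rnf2delta, and rose by 0.68 ± 0.14 (limma adjusted p = 0.00977). In E11.5 males it read 2.28, 2.30 and 2.43 in controls and 2.69, 3.14 and 2.73 in Rnf2delta, a difference of 0.52 ± 0.14 that did not pass (adjusted p = 0.102). Both male pairs were free of overlap, and so was the E11.5 female pair, whose controls read 2.14 to 2.22 and Rnf2delta arrays 2.37 to 2.7 (0.34 ± 0.14, adjusted p = 0.567). In E12.5 females the arrays overlapped, with 2.40, 2.18 and 2.28 in controls and 2.53, 2.25 and 2.80 in Rnf2delta (0.24 ± 0.14, adjusted p = 0.283). The mean over the 4 pairs was 0.45 ± 0.07 (adjusted p = 6.02e-05). Hoxa11, next to it and likewise a gene of the limb and reproductive tract, rose by 0.21 ± 0.07 over the 4 pairs (adjusted p = 0.0447, and 0.0139 to 0.097 over 32 alternatives, of which 21 lost the call). It was higher without overlap in both male pairs, by 0.33 and 0.36 ± 0.13, and differed by -0.02 in E12.5 females, a sign that turned with quantile normalization.

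**Figure D3:**
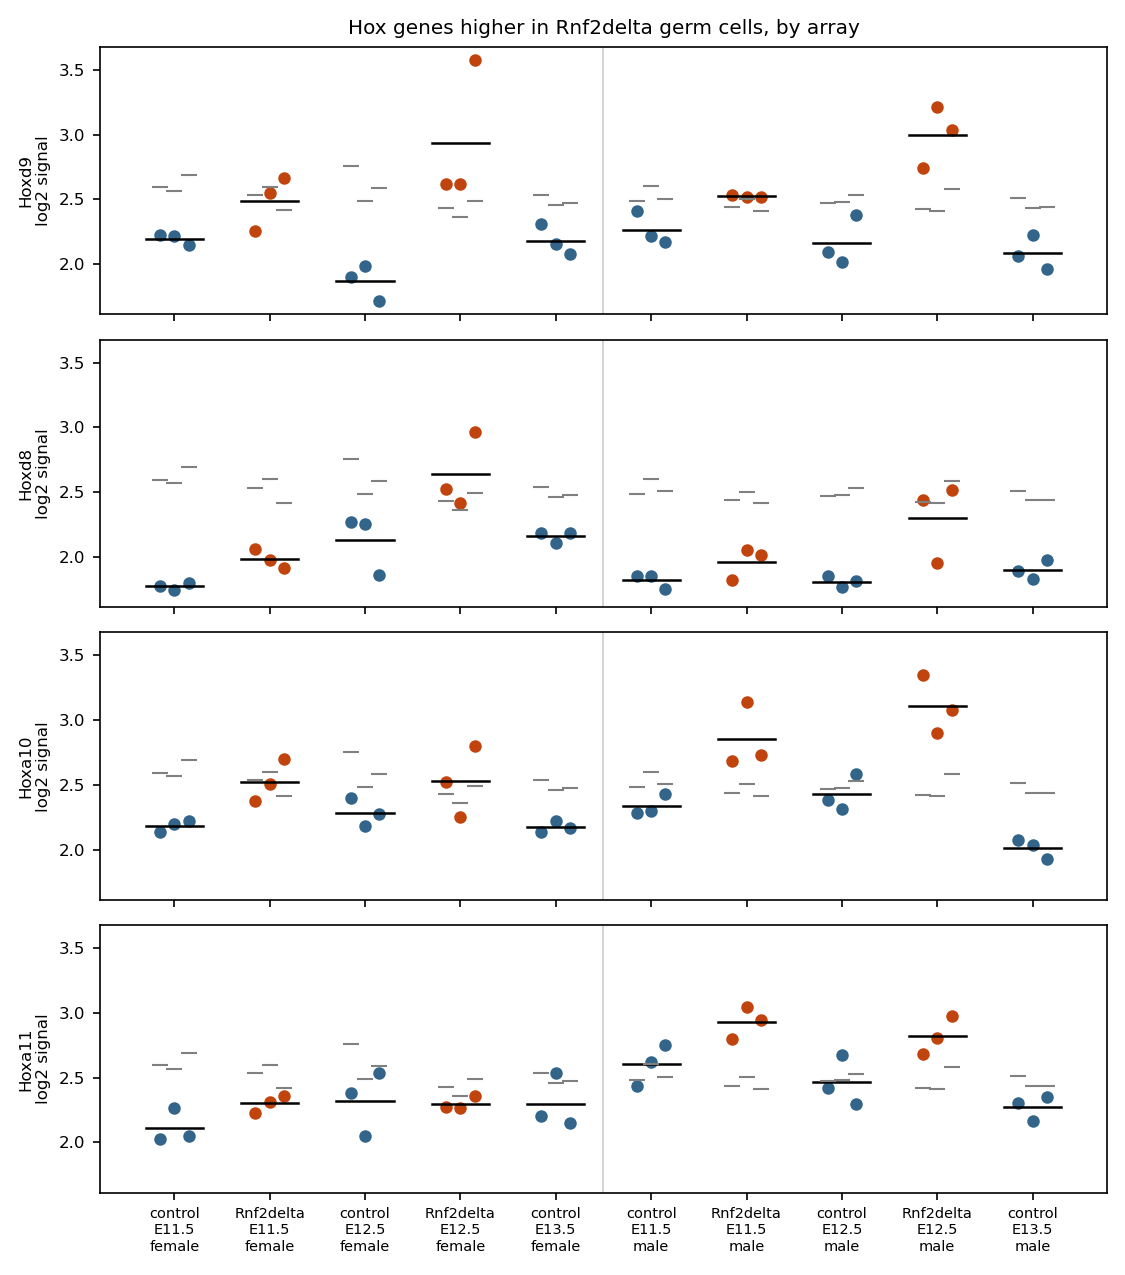
Log2 signal (vertical axis) of Hoxd9, Hoxd8, Hoxa10 and Hoxa11 on each array of the 10 groups (horizontal axis; blue, control; orange, Rnf2delta), with group means (black bars) and the background cutoff of each array (grey dashes). Rnf2delta arrays of Hoxd9 lie above the control arrays of the same stage and sex in all 4 pairs, with the highest, 3.58, in an E12.5 female.

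The means over 4 pairs of Hoxd9, Hoxa10 and Hoxd8 kept their call in all 32 alternatives, among them the fit without the 6 E12.5 female arrays, where they were 0.46, 0.51 and 0.28 over the remaining 3 pairs. The calls within single pairs rested on less. In E12.5 females, Rnf2delta replicate 3 gave the highest Hoxd9, Hoxd8 and Hoxa10 signals. Without it Hoxd9 rose by 0.75 and kept its call, and Hoxd8 was 0.34 higher and did not (limma adjusted p = 0.112, and 0.00595 to 0.388 over its alternatives). Without control replicate 3 of that pair Hoxd8 was 0.38 higher and did not pass either (adjusted p = 0.103). With only the 6 compared arrays in the fit, neither passed in E12.5 females (adjusted p = 0.179 for Hoxd9, over a range of 0.000135 to 0.179). In E12.5 males Hoxd9 lost its call without control replicate 1 or 2 or Rnf2delta replicate 2 or 3 (adjusted p up to 0.137 over its alternatives), and Hoxa10 without control replicate 1 or 2 or Rnf2delta replicate 1 (up to 0.116). Those differences stayed at 0.72 or more for Hoxd9 and 0.56 or more for Hoxa10.

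In E11.5 females none of the 37 Hox genes passed, where 0.391% of all genes did. By limma, 2 had an unadjusted p under 0.05, where 6.36% of all genes had. The highest differences were those of Hoxa10, Hoxd9 and Hoxd8 above. The lowest were Hoxc6, a gene of the thoracic region, at -0.45 ± 0.16 (adjusted p = 0.39), Hoxb6 at -0.20 ± 0.11 and the hindbrain gene Hoxb2 at -0.18 ± 0.15. The arrays of 4 Hox genes were higher and of 2 lower without overlap, beside 7.8% and 6.27% of all genes.

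In E11.5 males none passed, where 0.502% of all genes did, and 4 had an unadjusted p under 0.05 by limma (6.67% of all genes). Hoxa10 led, followed by Hoxb13, the most posterior Hoxb gene, at 0.41 ± 0.15 (adjusted p = 0.393) and Hoxa11 at 0.33. The lowest were Hoxd13 at -0.28 ± 0.11 (adjusted p = 0.446), Hoxc11 at -0.17 ± 0.15 and Hoxb5 at -0.15 ± 0.14. Arrays of 5 Hox genes were higher and of 3 lower without overlap, beside 7.17% and 7.32% of all genes. Hoxa10 passed in this pair under array weights (adjusted p = 0.0272) and in the fit without the E12.5 female arrays (0.0415), over a range of 0.0272 to 0.483.

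In E12.5 females Hoxd9 and Hoxd8 rose and no Hox gene fell, 2 of 37, where 8.83% of all genes changed and 6% rose. At an unadjusted p under 0.05 there were 5 by limma, beside 24.3% of all genes. The third highest difference was that of Hoxd1 at 0.27 ± 0.17. The lowest were the adjacent Hoxa6 at -0.37 ± 0.13 (limma adjusted p = 0.0631) and Hoxa5 at -0.33 ± 0.16 (adjusted p = 0.197), both active in the cervical and thoracic region, and Hoxc12 at -0.24 ± 0.11. Hoxa6 read 2.38, 2.30 and 2.33 in controls and 1.72, 2.19 and 1.99 in Rnf2delta, with every array below background. Arrays of 2 Hox genes were higher and of 2 lower without overlap, beside 9.39% and 7.88% of all genes. Without control replicate 2, 4 Hox genes passed, Hoxd8, Hoxd9, Hoxb9 and Hoxa5, whose difference was then -0.54. Without Rnf2delta replicate 2, Hoxa6 passed at -0.48. For these fits the share of all genes that passed is not given here.

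In E12.5 males Hoxd9 and Hoxa10 rose and no Hox gene fell, 2 of 37, where 0.672% of all genes changed and 0.592% rose. At an unadjusted p under 0.05 there were 9 by limma, beside 7.63% of all genes. Hoxb9, the Hoxb paralogue of Hoxd9, read 2.27, 1.89 and 2.27 in controls and 2.68, 2.57 and 2.85 in Rnf2delta, a difference of 0.56 ± 0.23 without overlap that did not pass (limma adjusted p = 0.492). Hoxa7 read 2.31, 2.07 and 2.30 in controls and 2.58, 2.87 and 2.55 in Rnf2delta (0.43 ± 0.12, adjusted p = 0.0941), again without overlap. Hoxc9, of the same paralogue group as Hoxb9, was 0.39 ± 0.16 higher. The lowest were Hoxb2 at -0.36 ± 0.15, Hoxc6 at -0.32 ± 0.16 and Hoxb13 at -0.20 ± 0.15. Arrays of 10 Hox genes were higher and of 3 lower without overlap, beside 8.05% and 5.49% of all genes. Array weights gave 4 calls, and the fit without the E12.5 female arrays, whose spread enters the shared estimate, gave 5: Hoxa7, Hoxa10, Hoxb9, Hoxd8 and Hoxd9. The share of all genes that passed in these fits is not given here, and 0.672% belongs to the main fit.

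**Figure D4:**
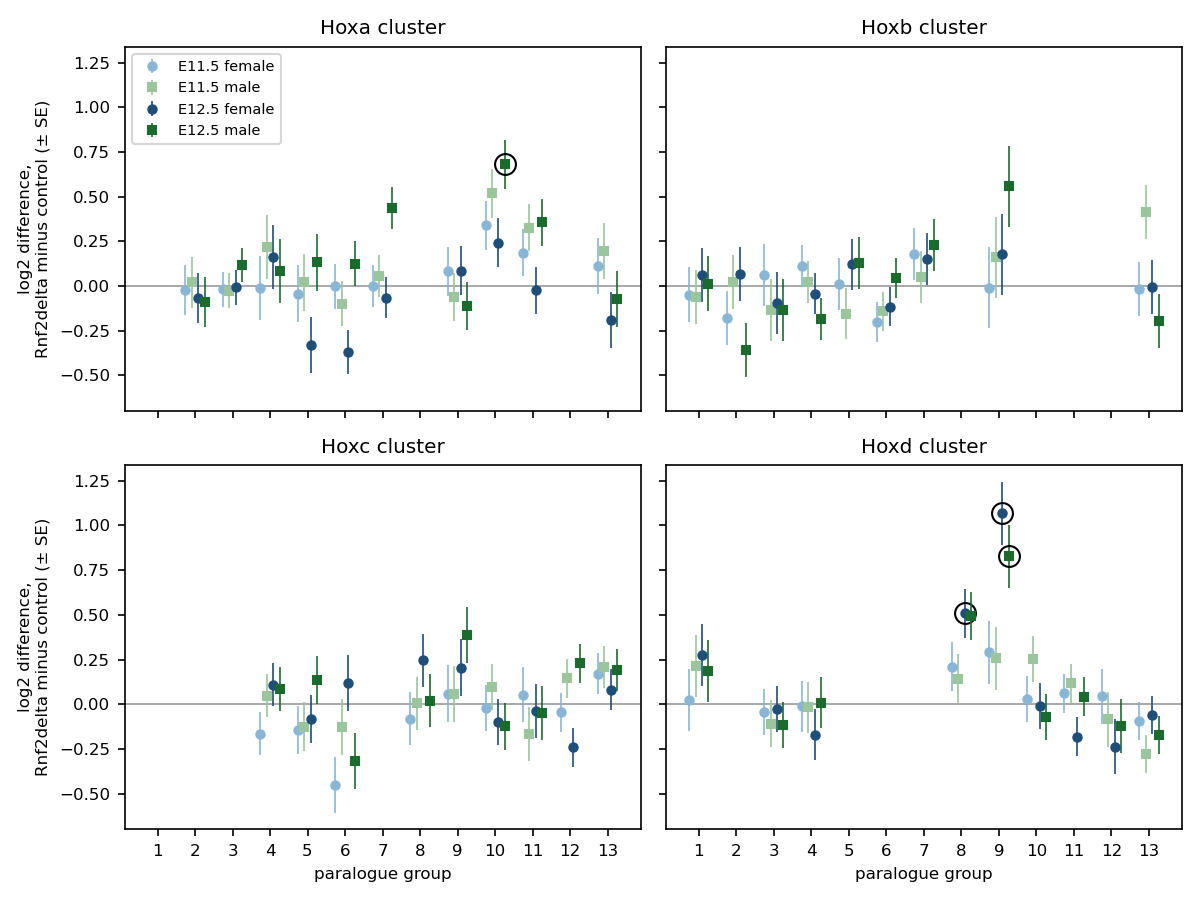
Log2 difference between Rnf2delta and control (vertical axis, ± SE) of the 37 Hox genes by paralogue group (horizontal axis) in the 4 clusters, for E11.5 and E12.5 females (blue circles) and males (green squares), with lighter symbols for E11.5. Black rings mark the differences with an adjusted p under 0.05, which are Hoxd9 and Hoxd8 in E12.5 females and Hoxd9 and Hoxa10 in E12.5 males.

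By cluster, the 4 genes called over the mean of the 4 pairs were 2 of 10 Hoxa and 2 of 9 Hoxd genes, and none of the 9 Hoxb or 9 Hoxc genes, whose means ran from -0.11 to 0.22 and from -0.19 to 0.18. By position they were 3 of 16 posterior, 1 of 14 central and none of 7 anterior genes (paralogue groups 1 to 3). Of all genes 6.01% rose, and neither split was tested. Posterior genes had a median difference of 0.06 in E11.5 females and 0.15 in E11.5 males, with 11 and 12 of 16 above 0, and of -0.02 and -0.004 at E12.5, with 6 and 8 above 0. Anterior genes had medians of -0.02 in females and -0.03 in males at E11.5, and of -0.01 and -0.09 at E12.5. Central genes had medians of -0.01 and 0.01 at E11.5, and of 0.03 in females and 0.11 in males at E12.5, with 12 of 14 above 0 in the last. The medians of all genes were -0.004 and -0.01, then -0.01 and 0.01. Of all 19937 genes, 9733 lay above 0 in E11.5 females, 9177 in E11.5 males, 9709 in E12.5 females and 10475 in E12.5 males. Members of paralogue group 9 over the 4 pairs were Hoxd9 at 0.61, Hoxb9 at 0.22 ± 0.11, Hoxc9 at 0.18 ± 0.08 and Hoxa9 at -0.001, and of these only Hoxd9 passed. In group 13 Hoxc13 was 0.16 ± 0.06 higher (limma adjusted p = 0.0885) and Hoxd13 0.15 ± 0.05 lower (adjusted p = 0.0837), and neither passed.

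Across the 4 pairs, 7 of 37 Hox genes were higher each time (18.9%, beside 2685 of all 19937 genes): Hoxd9, Hoxa10, Hoxd8, Hoxb7, Hoxc9, Hoxc13 and Hoxd1. Hoxd3 and Hoxd13 were lower each time, 5.41% beside 12.1% of all genes. Hoxc6 was lower in 3 pairs and 0.12 higher in E12.5 females. Its mean was -0.19 ± 0.08 (limma adjusted p = 0.14), and it passed at -0.30 in the fit without the E12.5 female arrays (adjusted p = 0.0374, over a range of 0.0374 to 0.265).

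The size of the genotype difference was compared between the sexes at E12.5 and between the stages within each sex, and no Hox gene passed by limma in these 3 tests. Between the sexes at E11.5 it was not tested. Between the sexes at E12.5, 5 of 37 Hox genes had an unadjusted p under 0.05 by limma (13.7% of all genes), where 0.236% of all genes passed. These 5 were Hoxa5, Hoxa6, Hoxa7, Hoxa10 and Hoxc12, each with the lower difference in females by 0.44 to 0.50, and they were named after their values were seen. Without control E12.5 female replicate 2, Hoxa7 passed. For Hoxa10 the female difference was 0.44 ± 0.19 smaller (adjusted p = 0.306). For Hoxd9 it was 0.24 ± 0.25 larger (adjusted p = 0.704) and for Hoxd8 0.02 ± 0.19 larger (adjusted p = 0.983). From E11.5 to E12.5 the Hoxd9 difference grew by 0.78 ± 0.25 in females (adjusted p = 0.246) and by 0.57 ± 0.25 in males (adjusted p = 1), where 0.125% and 0% of all genes passed. Each had 3 Hox genes with an unadjusted p under 0.05 by limma, beside 10.6% and 2.67% of all genes. These contrasts use the E12.5 control arrays that also enter the single comparisons.

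In control females most Hox genes lay a little higher at E12.5 than at E11.5 and E13.5, and few passed the test. From E11.5 to E12.5 the median over the 37 was 0.13 with 28 above 0, beside a median of -0.003 over all genes, and from E12.5 to E13.5 it was -0.10 with 26 below 0, beside 0.0002. Hoxa13, the most posterior Hoxa gene, rose by 0.49 ± 0.16 in the first step (1 of 37, where 16.7% of all genes changed and 5.77% rose, limma adjusted p = 0.03) and fell by 0.44 ± 0.16 in the second (adjusted p = 0.0474). Its arrays read 1.83, 1.79 and 2.03, then 2.33, 2.42 and 2.38, then 1.89, 2.09 and 1.83. Hoxd11 read 1.84, 2.01 and 2.12, then 2.28, 2.07 and 2.497, then 1.98, 1.86 and 1.86, and fell by 0.38 ± 0.11 in the second step (adjusted p = 0.0137). With Hoxa13 this made 2 of 37 that fell, where 19% of all genes changed and 6.08% fell. By limma 8 of 37 had an unadjusted p under 0.05 in the first step and 5 in the second, beside 30.3% and 31.8% of all genes. No array of these groups was above background for either gene. The olfactory receptor median moved the same way (1.82 to 1.86, 1.89 to 1.98, then 1.77 to 1.82), and its part in these differences was not tested.

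The Hoxa13 call of the first step was lost in 7 of 13 alternatives (adjusted p 0.0225 to 0.133), among them without control E11.5 female replicate 1 (0.0883) or 2 (0.106) and without E12.5 female replicate 1 (0.0545), 2 (0.0646) or 3 (0.0565). Without E12.5 female replicate 2 or 3, 3 Hox genes passed in that step, and without E11.5 female replicate 3, 2 did. The second-step call was lost in 9 of 13 (0.0376 to 0.161), the 6 fits that left out an array among them. The Hoxd11 call was lost in 4 of 12, without E12.5 female replicate 3 (0.0968) and E13.5 female replicate 2 (0.054) among them (0.00303 to 0.172 over all). Without E12.5 female replicate 2, 4 Hox genes passed in the second step, and without E13.5 female replicate 2 none did. Shares of all genes that passed in these fits are not given here.

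The measured Hoxd9 signal had the opposite sign in control females. Its mean was 2.20 ± 0.04 at E11.5, 1.87 ± 0.14 at E12.5 and 2.18 at E13.5 (SD, n = 3), differences of -0.33 and 0.32 ± 0.18 that did not pass (limma adjusted p = 0.206 and 0.221). Hoxd9 was above background on no control array, so these signals give no order of levels. In control males no Hox gene passed from E11.5 to E12.5 (1.93% of all genes) or from E12.5 to E13.5 (0.752%). By limma, 0 and 2 of 37 had an unadjusted p under 0.05 in these steps, beside 13% and 8.71% of all genes. In males Hoxa10 was 0.41 ± 0.14 lower at E13.5 than at E12.5 (adjusted p = 0.222), with 1.93 to 2.08 against 2.31 to 2.58.

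Between control females and males no Hox gene passed at E11.5 (0.186% of all genes), E12.5 (16.7%) or E13.5 (12%). By limma, 2, 4 and 1 of 37 had an unadjusted p under 0.05, beside 7.42%, 30.2% and 22.3% of all genes. Hoxa11 came nearest at E11.5, with 2.03, 2.26 and 2.05 in females and 2.43, 2.62 and 2.75 in males, 0.49 ± 0.13 lower in females (adjusted p = 0.187). At E12.5 the median over the Hox genes was 0.10 higher in females, beside 0.01 over all genes. Hoxd11 was 0.31 ± 0.11 higher there (adjusted p = 0.0503). Without E12.5 female replicate 2, 2 Hox genes (Hoxa5 and Hoxd11) passed at this stage, and without replicate 3, 1 did (Hoxd8), with no share of all genes beside these counts. At E13.5 Hoxa4 read 2.99, 3.33 and 3.10 in females and 2.81, 2.72 and 2.703 in males, 0.39 ± 0.18 higher without overlap (adjusted p = 0.181). The E12.5 female control arrays are shared by the stage, sex and genotype comparisons, whose values are therefore not independent.

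**Figure D5:**
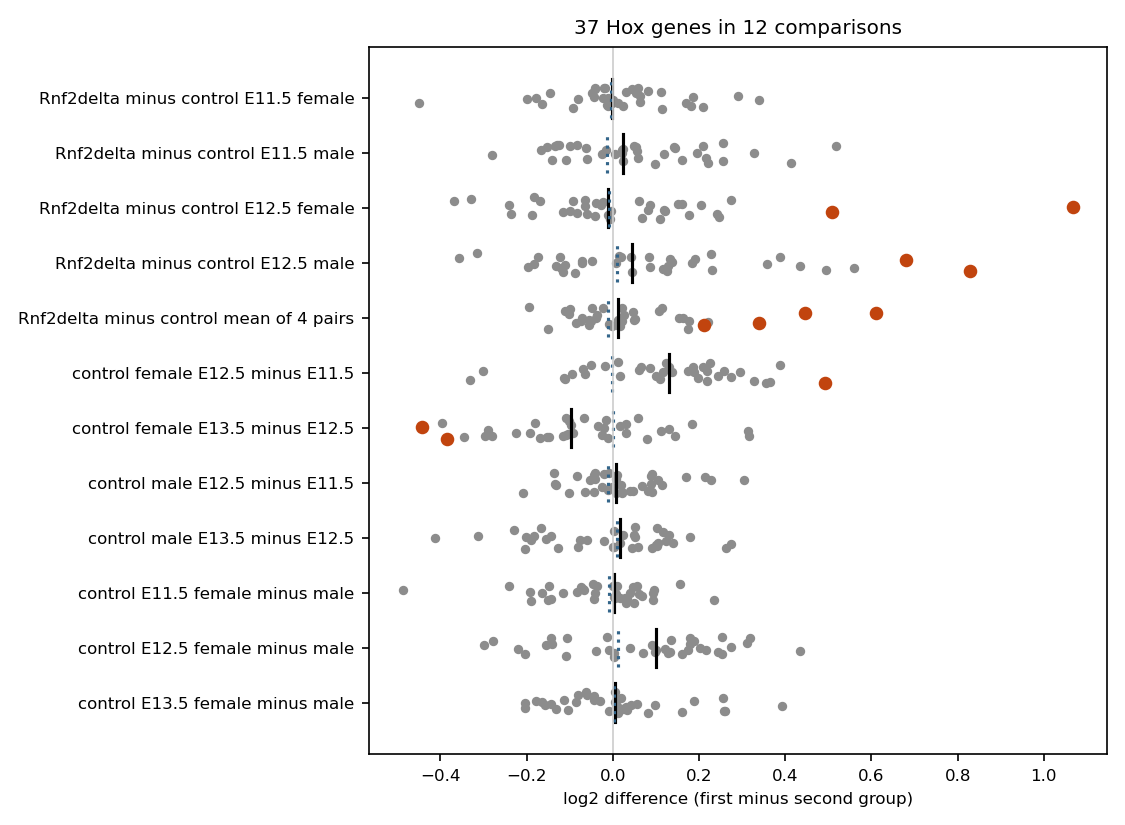
Log2 difference (horizontal axis) of each of the 37 Hox genes in 12 comparisons (vertical axis; first minus second group). Orange points have an adjusted p under 0.05, black bars are Hox medians and dotted blue bars the medians of all genes, and the Hox median departs most from that of all genes in the 3 comparisons of control E12.5 females with other controls.

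Other genes tied to the Hox clusters by function, class or position were read over the mean of the 4 pairs, in which 7.8% of all genes changed and 6.01% rose. Among the TALE homeodomain genes are the Pbx and Meis genes, whose proteins bind DNA together with Hox proteins. Of 10 measured TALE genes, 3 rose and none fell: Tgif1 by 0.72 ± 0.10 (limma adjusted p = 1.55e-05), Meis2 by 0.31 ± 0.10 (adjusted p = 0.0431) and Meis1 by 0.28 ± 0.08 (adjusted p = 0.0256). Tgif1 is of the TALE class but is not a Pbx or Meis gene. Meis1 and Meis2 were above 0 in all 4 pairs and passed in no single one. Of the 12 control arrays compared, Meis1 was above background on 0 and Meis2 on 1, so the size of either rise is not measured. Of the 12 Rnf2delta arrays they were above it on 6 and 9. Beside the same 6.01% of all genes, 3 of 19 measured activators and axial patterning factors rose and none fell: Cdx2, a direct activator of central Hox genes, by 0.40 ± 0.09 (adjusted p = 0.00249), the hindbrain factor Egr2 by 0.39 ± 0.11 and the retinoid receptor Rxra by 0.55 ± 0.10. Cdx2 was above background on 3 of the 12 control arrays. Cdx2 rose by 0.67 ± 0.17 in E12.5 females (adjusted p = 0.0139) and differed by 0.19 in E12.5 males.

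Of 12 measured trithorax and MLL complex genes, which keep Hox genes active, 2 rose and none fell, beside 6.01% of all genes that rose and 1.79% that fell: Kdm6b, a demethylase of the PRC2 mark, by 0.32 ± 0.08 (limma adjusted p = 0.00933) and Men1 by 0.24 ± 0.07 (adjusted p = 0.0228). Of 18 measured Polycomb genes, 5 rose and 2 fell, beside the same shares. Those that rose were Cbx8, the PRC1 chromobox subunit, by 1.43 ± 0.09 (adjusted p = 1.11e-11, above background on 4 of the 12 control arrays), the PRC1 subunit Bmi1 by 0.63 ± 0.12 (adjusted p = 0.000976) and 3 others. Besides Rnf2 the PRC1 subunit Pcgf2 fell, by 0.26 ± 0.08 (adjusted p = 0.0475). Of 16 measured genes that flank the Hox clusters, 3 rose and none fell, again beside 6.01% of all genes that rose: Calcoco2 by 0.58 ± 0.12, beyond the Hoxb cluster, Skap2 by 0.30 ± 0.08, beyond the Hoxa cluster, and Mtx2 by 0.25 ± 0.06, beyond the Hoxd cluster. Evx1 and Evx2, the homeobox genes next to Hoxa13 and Hoxd13, differed by 0.06 and 0.07 and did not pass, and they are named here after their values were seen. Beside 7.8% and 20.5% of all genes, none of 9 measured noncoding RNAs within the clusters passed by limma, and 0 had an unadjusted p under 0.05. Their median was -0.03, and those of the TALE, activator, trithorax, Polycomb and flanking lists were 0.09, 0.05, 0.13, 0.04 and 0.06, beside -0.01 over all genes.

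Somatic gonad and mesonephros express posterior Hox genes, so their markers are given beside these results. Of 15 measured interstitial, mesonephric and mesenchymal markers, 3 were above background on all 3 arrays in control and 7 in Rnf2delta E12.5 females, the pair in which Hoxd9 and Hoxd8 rose. The counts were 4 and 5 in E11.5 females, 6 and 5 in E11.5 males, and 5 and 5 in E12.5 males. The background cutoff was also lower on the Rnf2delta E12.5 female arrays. The markers' mean log2 signal per array was 2.41 to 2.54 in Rnf2delta and 2.39 to 2.67 in control E12.5 females, and 2.48 to 2.61 and 2.53 to 2.61 in E12.5 males. None rose over the 4 pairs, where 6.01% of all genes did, and Lhx1 fell by 0.77 ± 0.11 (limma adjusted p = 1.82e-05). Lhx1 was above background on all 3 arrays of every group. In controls it was lower in females than in males at E11.5, E12.5 and E13.5, passing each time by limma. Which cells its signal comes from was not tested. Members of the list differed among themselves. Pdgfrb, Nr2f1, Tcf21 and Meox1 were above background on no array of the 4 E12.5 groups. In Rnf2delta E12.5 females Emx2 was 0.47 ± 0.16 higher (limma adjusted p = 0.0619) and Tcf21 0.52 ± 0.17 lower (limma adjusted p = 0.0537). Neither passed, and Emx2 was above background on 1 Rnf2delta array and no control array of that pair. Pdgfra was higher in all 4 pairs, by 0.18 ± 0.06 on average (adjusted p = 0.0626), and above background on 11 of 12 Rnf2delta and 4 of 12 control arrays. Beside 7.8% and 20.5% of all genes, none of 12 supporting cell markers passed over the 4 pairs by limma, and 2 had an unadjusted p under 0.05. From control to Rnf2delta, 3 and 6 of the supporting cell markers were above background on all 3 arrays in E12.5 females. The counts were 3 and 7 in E11.5 females, 5 and 7 in E11.5 males, and 8 and 5 in E12.5 males. Their mean was 2.76 to 3.13 in Rnf2delta and 2.77 to 2.99 in control E12.5 females, where Dmrt1, which germ cells also express, and Irx3 rose, and the highest mean belonged to Rnf2delta replicate 3, the array with the highest Hoxd9 signal. In E12.5 males the supporting cell means were 2.82 to 3.07 and 2.84 to 3.04. Steroidogenic markers were above background in none of the 10 groups on all 3 arrays. Of the endothelial markers only Pecam1, which germ cells also express, was so at E12.5, and it fell by 0.49 ± 0.07 over the 4 pairs. Of 6 macrophage markers at most 1 was so in any group. The mean of the erythroid markers was 4.40 on Rnf2delta E12.5 male replicate 3 and 1.95 to 2.495 on every other array, and without that array Hoxd9 was 0.81 higher (adjusted p = 0.0568, over a range of 0.000554 to 0.137) and Hoxa10 kept its call. None of the 4 steroidogenic, 5 erythroid and 6 macrophage markers passed over the 4 pairs by limma, and 0 had an unadjusted p under 0.05. The shares of all genes were again 7.8% and 20.5%. The part of other cell types in the Hox differences was not tested.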

How the data were processed

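The table deposited by the authors holds log2 signals of 34760 probe sets on 30 arrays. Its array medians were 2.52 to 2.66, and the main fit used the signals as deposited. Per the submitters' processing notes, the tools were R 2.15 and affy 1.36. How background was corrected, how probes were summarised and which genome build applied is not given in the sources used here. No scanner file was used, so scan batches were not examined. Differences are compressed at low signal, levels of different probe sets are not compared, and precision is limited by the number of arrays.

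Names came from the platform annotation, updated through the RefSeq table of GRCm38.p6. A gene is represented by its single-symbol probe set of highest mean, which gave 19937 genes. limma 3.58.1 in R 4.3.3 was fitted once to all arrays, with a mean for every group (20 residual degrees of freedom). Comparisons are contrasts of those means, two-sided, with Benjamini-Hochberg adjustment over all genes at 0.05 and no filter on low values, which would have kept 25 of 37 Hox genes. The fit was tested on simulated data. The text names each Hox gene called in any comparison, each above background on all 3 arrays of a group, the 3 highest and 3 lowest in each genotype comparison, and up to 4 members of each list. Other Hox genes in the text were named after their values were seen. The Hox members, gene lists and tests were chosen with earlier results of these data known. Alternatives were a filter on low values, quantile normalization, array weights, an intensity trend, the mean of probe sets, a replicate block, a fit of the compared groups alone, other background cutoffs and leaving out each array. Promoter windows are RefSeq's, for 21 of the 37 genes.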

Additional observations from a re-analysis of the deposited data

Results flagged for a closer look

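For 2 Hox genes every array moved one way in one setting and the opposite way in another. The share of all genes that did so was not counted, so how unusual this is cannot be said. Hoxa6 was 0.26 higher in control females at E12.5 than at E11.5, and its difference was -0.21 in control males over the same step. Hoxa10 differed by -0.15 between control females and males at E11.5 and by 0.16 at E13.5. In both cases the groups of each comparison did not overlap, neither gene passed in any of these comparisons, and the difference between the settings was not tested. No array of these groups was above background for either gene, except that Hoxa10 was on 1 control E12.5 male array, which is in neither Hoxa10 comparison.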

How the results depend on the processing

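The calls of Hoxd9, Hoxa10 and Hoxd8 over the mean of the 4 pairs were kept in all 32 alternatives run. The counts of Hox genes called moved elsewhere. They are given without the share of all genes called in the same alternative, so a move may not be particular to Hox genes. With array weights they were 1 in E11.5 males, 1 in E12.5 females, 4 in E12.5 males and 0 in both stage steps of control females. Fitting the compared groups alone, they were 0 in E12.5 females, 1 in E12.5 males, 0 in both female stage steps and 1 between the sexes at E13.5 (Hoxa4). Between the sexes at E12.5 there was 1 call with quantile normalization (Hoxc13), 1 with the mean of probe sets and 2 with an intensity trend. The filter on low values left 1 in the female step from E12.5 to E13.5, since Hoxd11 was not tested. The fit without the 6 E12.5 female arrays, added after seeing the data, gave 1 in E11.5 males and 5 in E12.5 males. Leaving out 1 array at a time gave 1 to 4 in E12.5 females, 0 to 2 in E12.5 males, 3 to 4 over the 4 pairs, 0 to 3 and 0 to 4 in the female stage steps, 0 to 2 between the sexes at E12.5 and 0 to 1 (Hoxa7, without control E12.5 female replicate 2) for the sex difference in genotype effect. Hoxa11 in E12.5 females turned from -0.0238 to 0.0384 with quantile normalization, and without 1 array ranged from -0.1605 to 0.0823 (0.0068 without control replicate 1, 0.0823 without control replicate 3). The average number of Hox genes above background was 4.4, and 0.5 and 7.1 with the other cutoffs. The cause of these moves was not tested. Replicate numbers were examined as a possible pairing of samples. Over 33 pairs of same-numbered arrays in 11 comparisons the correlation of deviations was -0.14 to 0.28, and 0 comparisons had all 3 pairs over 0.1. The 5 pairs over 0.1 all joined a control and an Rnf2delta array. The correlations were highest in E12.5 males (0.165, 0.0884 and 0.276), and their cause was not tested. With the replicate number as a block Hoxd9 over the 4 pairs was 0.61 (limma adjusted p = 4.24e-05), and the block changed no count by over 1.5 times. Signals near background limit every value here.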
